A study of Mus musculus with 2 samples.

Results

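Meis1, Meis2, Meis3, Pknox1, Pknox2, Pbx2, Pbx3 and Pbx4 are genes of the TALE class of homeobox transcription factors, and their rows were taken from the gene and transcript tables by gene identifier, 8 genes of 43346 annotated genes. The tables come from total RNA sequencing of the embryonic facial prominence, the tissue that grows into the face and jaws, of mouse embryos of strain B6NCrl at 11.5 days. There were 2 libraries in 1 group. Library 1 pooled 109 embryos and library 2 pooled 88, of both sexes, and each began with 10 ng of RNA above 200 nt in size, to which RNA spike-ins were added. No group was set against another, so there is no test, and each value is given per library with the mean and SD over the 2 pools.

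TALE proteins carry a homeodomain, the DNA-binding fold of Hox proteins, that is lengthened by a loop of 3 amino acids between its first and second helix. Pbx proteins bind DNA together with Hox and other homeodomain proteins, and Meis and Pknox (Prep) proteins bind Pbx through their N-terminal part and join it in the nucleus and on DNA. In the embryonic head, Pbx genes are known for the fusion of the midface, and Meis2 for the skeleton formed by cranial neural crest and, in humans, for the palate.

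The homeobox sequences are shown first, since the loop is what places these genes in 1 class and the bases around it set their families apart. Each line holds in capitals the proline, tyrosine and proline codons by which the region of the loop was located. They stand between 15 coding bases on either side, 5′ to 3′, as in the GENCODE M21 transcripts on GRCm38 (the assembly mm10).
Meis1: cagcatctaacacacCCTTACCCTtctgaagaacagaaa
Meis2: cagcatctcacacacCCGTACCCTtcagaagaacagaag
Meis3: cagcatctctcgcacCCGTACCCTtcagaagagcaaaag
Pknox1: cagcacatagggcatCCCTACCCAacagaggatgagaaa
Pknox2: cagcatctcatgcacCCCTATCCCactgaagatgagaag
Pbx2: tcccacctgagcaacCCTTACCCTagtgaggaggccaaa
Pbx3: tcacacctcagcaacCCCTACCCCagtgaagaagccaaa
Pbx4: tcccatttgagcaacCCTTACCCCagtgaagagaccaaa
In all 8 these codons were found at codons 27 to 29 of the 63-codon homeobox, spelled in 6 different ways. Their amino acids are the same in all 8 by the way the stretch was searched for. Whether the capitals are the 3 added codons themselves or lie beside them was not determined. The stretch shown lies in 1 exon in the 3 Pbx genes (chr17:34594640-34594678 on the plus strand for Pbx2, chr2:34204819-34204857 on the minus strand for Pbx3, chr8:69866526-69866564 on the plus strand for Pbx4). In the 5 Meis and Pknox genes it is split between 2 exons. Over the whole homeobox, base identity was 82.0% to 84.7% among the 3 Meis genes, 78.3% between Pknox1 and Pknox2, and 79.4% to 82.5% among the 3 Pbx genes. Between Meis and Pknox it was 65.1% to 71.4%, and between Meis and Pbx 44.4% to 53.4%.

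Library 1 held 30849058 expected counts (reads estimated per gene) and library 2 held 31600302. The coefficient of variation between the libraries, from the common dispersion of edgeR over 15986 genes, was 9.79%. All 8 markers of facial mesenchyme and all 6 of surface epithelium were detected, but so were at least 5 of 6 markers in every other list, so detection does not set the labelled tissue apart. Several lists differed between the pools in summed TPM (a level per transcript length, scaled to a fixed total per library). Forebrain, eye and lens markers stood at 202.84 TPM in library 1 and 60.65 in library 2. Heart markers stood at 23.53 and 76.59 TPM, skeletal muscle markers at 103.99 and 168.64, neuron markers at 489.03 and 402, and endothelium markers at 170.22 and 139.75. The mesenchyme markers summed to 1164.01 and 1161.95 TPM, with members going both ways: Barx1 stood at 56.65 and 104.89 TPM and Alx1 at 140.65 and 120.73 TPM. No marker of these lists was at 0 in either library.

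All 8 genes were detected, which here means at least 1 TPM in each library, a level that 32.0% of all annotated genes and 58.5% of protein-coding genes reached. Their levels, summed, came to 237.58 TPM in library 1 and 238.95 TPM in library 2. With all transcripts of a gene counted, the order was led by Meis1 and Meis2, followed by Pbx3 and Meis3. The lower library of each gene lay above the higher library of the next, except that Pbx4 and Pknox2, at the end, overlapped. In bulk tissue, fewer cells with a gene and less RNA of it per cell cannot be told apart.

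**Figure D1:**
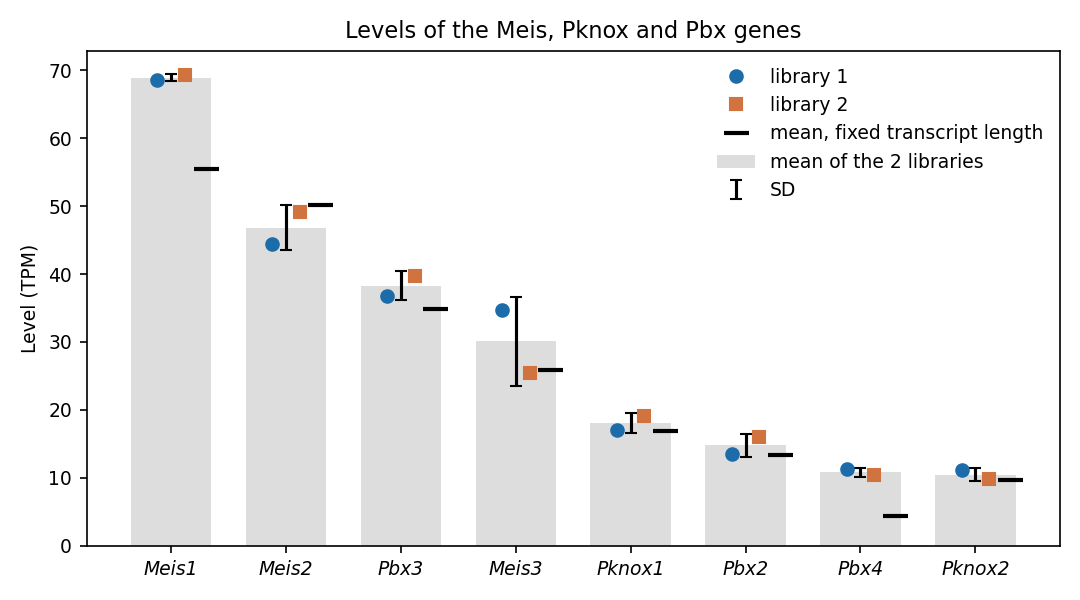
Levels in TPM of the 8 genes in library 1 (circles) and library 2 (squares), with the mean (bars) and SD, n = 2. Short black lines give the mean when counts were divided by 1 fixed transcript length per gene. With all transcripts counted, Meis1 leads on either scale, and Pbx4 falls from 10.8 to 4.32 TPM on the fixed length.

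Among the Meis genes, Meis1, a Hox and Pbx cofactor first known as a leukaemia gene (chr11:18879817-19018985, minus strand), was at 68.59 TPM in library 1 and 69.28 TPM in library 2, or 68.9 ± 0.488 TPM (SD, n = 2). This placed it above 89.8% of protein-coding genes. Meis2 (chr2:115863064-116065839, minus strand) was at 44.48 and 49.2 TPM, or 46.8 ± 3.34 TPM. The 2 libraries were closer to each other than the genes were, and the Meis1 to Meis2 ratio was 1.54 in library 1 and 1.41 in library 2. These levels count all transcripts of a gene. Transcripts of the coding type took 47.48% and 53.49% of Meis1, 86.02% and 85.19% of Meis2, and 93.06% and 95.6% of Pbx3. Counting these alone, Meis1 lay below both Meis2 and Pbx3 in each library. Meis3, known from the patterning of the hindbrain (chr7:16175090-16186504, plus strand), was at 34.75 TPM in library 1 and 25.42 TPM in library 2, or 30.1 ± 6.60 TPM. It had the widest spread of the 8 genes, and Meis2 exceeded it by 1.28 times in library 1 and by 1.94 times in library 2.

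The Pknox genes, which encode the Prep proteins, stood below the Meis genes. Pknox1, needed in early embryos (chr17:31564734-31607693, plus strand), was at 17.02 and 19.13 TPM, or 18.1 ± 1.49 TPM (SD, n = 2). Pknox2 (chr9:36890982-37147407, minus strand) was at 11.14 and 9.79 TPM, or 10.5 ± 0.955 TPM. Pknox1 was higher in both libraries, by 1.53 and 1.95 times. The 3 Meis genes together exceeded the 2 Pknox genes by 5.25 times in library 1 and 4.98 times in library 2.

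Of the 3 Pbx genes described here, Pbx3, known from hindbrain neurons that control breathing (chr2:34171457-34373142, minus strand), was the highest. It was at 36.79 and 39.78 TPM, or 38.3 ± 2.11 TPM (SD, n = 2). Pbx2, made in most embryonic tissues (chr17:34591266-34597400, plus strand), was at 13.56 and 16 TPM, or 14.8 ± 1.73 TPM. Pbx3 exceeded Pbx2 by 2.71 times in library 1 and by 2.49 times in library 2, a gap wider than the spread of either gene. Pbx4, best known from the testis (chr8:69832491-69872292, plus strand), was at 11.25 and 10.35 TPM, or 10.8 ± 0.636 TPM. The summed Meis genes exceeded these 3 summed Pbx genes by 2.40 and 2.18 times.

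The level of Pbx4 rested on few reads. It had 142 counts in library 1 and 137 in library 2, against 752 and 654 for Pknox2, and an effective length of 616 and 634 bases, against 3292 and 3202. When the counts of each gene were divided by the length of its transcript with the longest coding sequence (1560 bases for Pbx4), Pbx4 came to 4.44 and 4.21 TPM and lay below Pknox2, at 10.4 and 8.92 TPM, in both libraries. On that scale Meis1 stood at 54.6 and 56.5 TPM and Meis2 at 47.4 and 53.0 TPM. The order of the other genes was kept, and the gap between Meis1 and Meis2 narrowed.

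The protein-coding genes whose levels lay nearest to those of Meis1 in the 2 libraries, by distance in log2 TPM among 15996 genes, were Gart at 0.0113, Aarsd1 at 0.0126 and Eif2b2 at 0.0153. Over 2 libraries this is a likeness of level alone.

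Between the libraries, no member passed 1.5-fold, a difference seen in 11.6% of all genes with 20 counts or more, both libraries summed, and in 4.01% of those detected. The ratios below are of counts scaled by TMM, library 2 over library 1 unless said otherwise, with exact Clopper-Pearson 95% intervals that cover counting error only. Meis1 had 3745 and 3945 counts and a ratio of 1.05 (1.00 to 1.10, with the lower bound just above 1). Meis2, with 2751 and 3132 counts, had a ratio of 1.14 (1.08 to 1.20), and Pbx3, with 1778 and 1957 counts, a ratio of 1.10 (1.03 to 1.17). Pknox1, with 1379 and 1571 counts, also had a ratio of 1.14 (1.06 to 1.22). All 4 were somewhat higher in library 2, by less than Pbx2 was.

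Pbx2 had 760 and 936 counts and a ratio of 1.23 (1.12 to 1.35), the largest toward library 2. Meis3 had 1024 and 830 counts and was 1.24-fold higher in library 1 (1.13 to 1.36), the largest toward that library. Pknox2 was 1.15-fold higher in library 1 (1.04 to 1.28). The ratio of Pbx4 was 0.963 with an interval of 0.756 to 1.23, so no difference was detectable at its depth. The interval left out 1 in 7 of the 8 genes, 5 of them higher in library 2 and 2 in library 1. This was so in 39.9% of all genes with at least 20 counts (20.4% higher in library 2 and 19.5% in library 1) and in 42.4% of detected genes, and such intervals narrow as counts rise. The median fold of the members was 1.14 against 1.09 for detected genes, and 15.4% of detected genes lay at least as far from 1 as Meis3 did. The part of the marker lists that differ between the pools in these ratios was not tested.

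**Figure D2:**
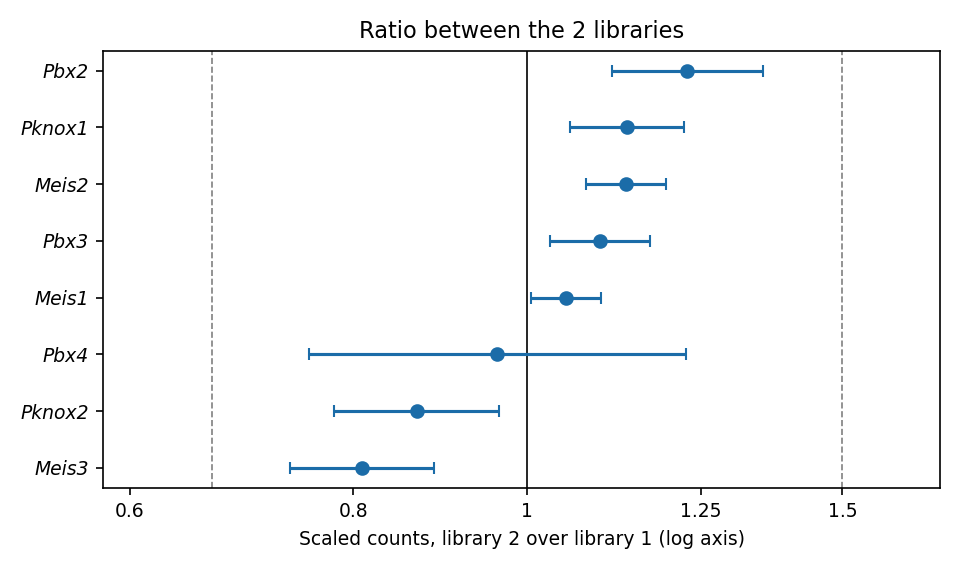
Ratio of scaled counts, library 2 over library 1, on a log axis, with exact 95% intervals of counting error. The solid line marks 1 and the dashed lines 1.5-fold either way. All 8 points lie inside the dashed lines, and the interval of Pbx4 is the only one that holds 1.

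The transcript tables held 80 transcripts of these genes, of which 22 were at 0 in both libraries. The isoform percentage is how much of its gene's TPM a transcript takes. In 7 of the 8 genes the same transcript took the largest share in both libraries, which was so in 90.6% of 9588 detected genes with at least 2 transcripts. Pknox1 and Pbx2 were each dominated by 1 coding transcript. Pknox1-201 took 92.24% and 91.15% of its gene, and Pbx2-201 took 81.07% and 87.19%, with Pbx2-203, a form with 348 codons in place of 430, at 16.67% and 10.65%. The other genes divided their level among several forms.

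**Figure D3:**
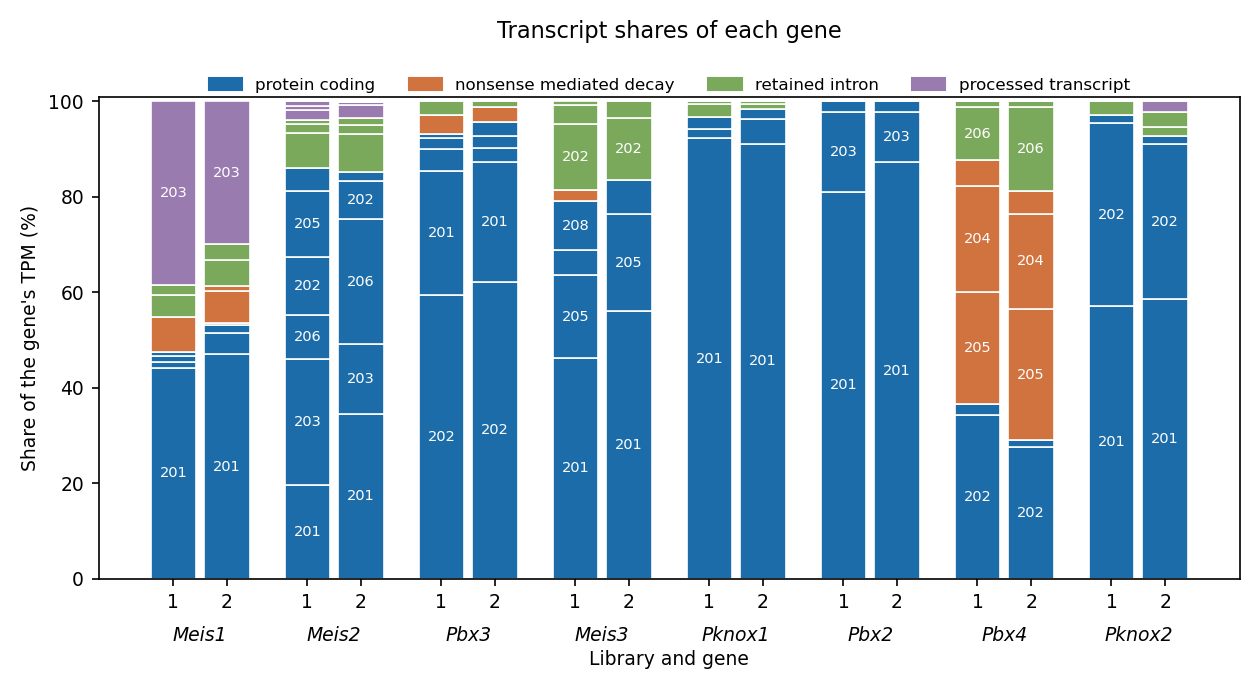
Share of each gene's TPM by transcript in library 1 and library 2, coloured by the annotated type of the transcript, with the number of each transcript of at least 8%. Coding forms take at least 92.82% of Pknox1, Pbx2, Pknox2 and Pbx3 in each library. A processed transcript takes 38.42% and 29.97% of Meis1, and forms marked for nonsense-mediated decay take 51.16% and 52.28% of Pbx4.

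Meis2 was the gene whose leading transcript differed. Meis2-203 led in library 1 with 26.43% and stood at 14.59% in library 2, while Meis2-201 stood at 19.59% and led in library 2 with 34.56%. Meis2-206 stood at 9.16% and 26.11%, Meis2-205 at 13.88% and 0.05%, and Meis2-202 at 12.22% and 8.08%. The authors' posterior SD of the counts of these 5 transcripts was large, between 21.3% and 65.6% of the count, so their single shares are poorly set apart. The posterior means of Meis2-201 in library 2 and of Meis2-203 in library 1 were 24.03% and 23.33%. The 5 transcripts are combinations of a few splice choices. The shares of those choices are given next, as sums of the same percentages, with no posterior SD of their own.

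One choice concerns the exon before the last, of 95 bases, in Meis2 (chr2:115866810-115866904, minus strand) and at the matching place in Meis1 (chr11:18883988-18884082, minus strand). The annotated coding sequence ends within it, after 56 bases, so coding transcripts with it have a shorter C-terminal end: 390 codons in Meis1-201 against 465 in Meis1-209, and 394 in Meis2-206 against 470 in Meis2-203. The coding bases are shown because the paralogs share them almost entirely, with 53 of 56 bases identical, yet use them to different extents. Each is written 5′ to 3′, all in capitals since all of it is coding.
Meis1, coding part of the penultimate exon: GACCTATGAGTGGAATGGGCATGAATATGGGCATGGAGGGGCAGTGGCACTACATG
Meis2, coding part of the penultimate exon: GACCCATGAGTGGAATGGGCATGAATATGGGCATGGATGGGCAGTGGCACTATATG
Among the transcripts that decide this choice, those with the exon took 90.8% in library 1 and 86.1% in library 2 for Meis1, or 88.4% ± 3.31 (SD, n = 2). For Meis2 they took 47.7% and 44.1%, or 45.9% ± 2.55. The libraries did not overlap between the genes. The count of Meis1-209, which lacks the exon, had a posterior SD of 76.9% in library 1 and 44.0% in library 2. The share with the exon includes forms with no coding sequence, above all Meis1-203 at 38.42% and 29.97% of Meis1. With coding transcripts alone the shares were 97.6% and 91.3% for Meis1 and 46.5% and 42.3% for Meis2, and with posterior means 90.2% and 84.8% for Meis1 and 47.7% and 44.3% for Meis2. Among coding transcripts, those without the exon were thus the larger part of Meis2 in both libraries and the smaller part of Meis1.

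A further choice in Meis2 lengthens the exon before that one by 21 bases (chr2:115867359-115867379, minus strand), which adds 7 codons between the homeobox and the C-terminal end. It is what sets Meis2-201, with 477 codons, apart from Meis2-203. The added bases are in capitals, between 15 bases of the exons on either side, 5′ to 3′.
Meis2, added bases: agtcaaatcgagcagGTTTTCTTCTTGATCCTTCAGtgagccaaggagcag
Transcripts with these bases took 45.3% and 44.0% of the deciding transcripts, or 44.6% ± 0.925 (SD, n = 2). By the deposited percentages, single transcripts of Meis2 differed by up to 16.95 points between the libraries and its 2 splice choices by 3.60 and 1.31 points. By posterior means the single transcripts were closer: Meis2-201 stood at 18.67% and 24.03%, Meis2-206 at 11.22% and 15.84%, and the added bases at 44.9% and 46.1%.

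**Figure D4:**
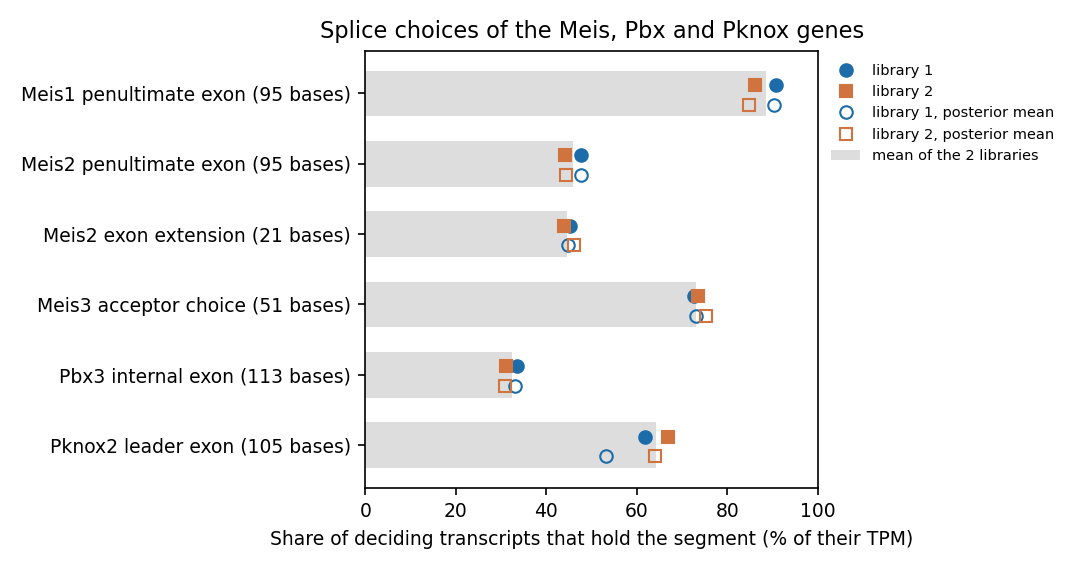
Share of the TPM of the deciding transcripts that holds each segment, in library 1 (circles) and library 2 (squares), from the deposited isoform percentages (filled, with bars for the mean, n = 2) and from posterior means (open). The penultimate exon is at 88.4% in Meis1 and 45.9% in Meis2, and the 2 libraries lie within 5.17 points of each other for every choice from the deposited percentages.

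Meis1 divided its level between a coding transcript, Meis1-201, at 44.24% and 46.99%, and Meis1-203, annotated as a processed transcript with no coding sequence, at 38.42% and 29.97%. Meis1-203 holds the exons of the homeobox. Coding transcripts took 47.48% and 53.49% of Meis1, or 50.5% ± 4.25 (SD, n = 2), against a median of 94.5% over 9215 protein-coding genes. Forms with the whole homeobox in their exons took 93.21% and 90.22%. On the opposite strand within Meis1 lies Gm16141, at 3.88 and 3.61 TPM, and with no strandedness stated for the counting, reads of the pair cannot be told apart by strand.

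Meis3 was led by Meis3-201 at 46.2% and 56.01%. Meis3-205 stood at 17.4% and 20.29%, the retained-intron form Meis3-202 at 13.75% and 13.05%, and the short form Meis3-208, of 659 bases and without the homeobox, at 10.24% in library 1 and 0% in library 2. By posterior means Meis3-208 stood at 9.29% and 3.71%, with a posterior SD of 54.6% of its counts in library 1 and a larger one in library 2, so its 0% is an uncertain estimate. The effective length of the gene was 1437 bases in library 1 and 1564 in library 2, so its TPM differed more between the libraries than its counts did. Meis3-201 and Meis3-205 differ by 51 coding bases at the start of an exon (chr7:16178951-16179001, plus strand), or 378 against 361 codons. They are shown because they set the 2 leading coding forms apart, in capitals throughout, 5′ to 3′.
Meis3, alternative bases: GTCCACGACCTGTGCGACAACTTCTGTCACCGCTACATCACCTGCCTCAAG
Transcripts with them took 72.6% and 73.4% of the deciding transcripts, or 73.0% ± 0.542 (SD, n = 2). The deciding transcripts made up 63.6% of Meis3 in library 1 and 76.3% in library 2. Of the whole gene, those with the bases took 46.2% and 56.01%.

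In Pbx3 the form with the shorter coding sequence led. Pbx3-202, with 351 codons, took 59.44% and 62.23%, and Pbx3-201, with 434 codons, took 25.9% and 24.97%. By the authors' posterior SD, the counts of the first were uncertain by up to 4.21% and those of the second by up to 11.3%. They differ by an exon of 113 bases behind the homeobox (chr2:34176749-34176861, minus strand), which is not a whole number of codons, so the reading frame and the C-terminal end differ. The exon is shown in capitals, 5′ to 3′.
Pbx3, internal exon: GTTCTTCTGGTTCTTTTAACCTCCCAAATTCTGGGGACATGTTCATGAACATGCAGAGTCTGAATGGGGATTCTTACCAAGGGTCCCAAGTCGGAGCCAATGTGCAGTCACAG
It was included in 33.5% and 31.1% of the deciding transcripts, or 32.3% ± 1.72 (SD, n = 2), and in 30.3% and 28.6% of the coding ones. Both forms hold the whole homeobox.

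Pbx4 had little of its full-length form. Pbx4-201, the coding transcript with the whole homeobox, took 2.29% and 1.30% of the gene, from 7.71 and 4.11 counts. That is 0.26 and 0.13 TPM, so Pbx4 was detected at 1 TPM as a gene and this transcript was not. Pbx4-202, of 375 bases and without homeobox exons, led with 34.32% and 27.67%. In library 2 its lead over Pbx4-205 was far smaller than the posterior SD of their counts, 19.3% and 24.7%, so its place there, and with it the count of 7 genes, is not firm. Pbx4-205 and Pbx4-204, both marked for nonsense-mediated decay, stood at 23.55% and 27.6% and at 22.01% and 19.93%, and the retained-intron form Pbx4-206 at 10.99% and 17.53%. Forms with the whole homeobox of 189 bases in their exons took 7.89% and 6.05%. That share leaves out forms with part of it, among them Pbx4-205, which holds 184 of these bases. Coding transcripts took 32.8% ± 5.40 (SD, n = 2), and such a share under 50% was found in 9.58% of 9215 protein-coding genes. Among the 8 genes Pbx4 was the only one under 50% in both libraries, with 36.61% and 28.97%, and Meis1 was under it in library 1.

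Pknox2 was divided between Pknox2-201 at 57.1% and 58.61% and Pknox2-202 at 38.31% and 32.42%. Both share a coding sequence of 474 codons and differ in their leaders. The posterior SD of their counts was between 18.9% and 33.5%. By posterior means Pknox2-201 stood at 41.27% and 48.85% and Pknox2-202 at 30.26% and 23.62%. Pknox2-207, with as many coding bases and at 0% in the deposited percentages, stood at 12.22% and 7.54%. Transcripts with a leader exon of 105 bases (chr9:36987168-36987272, minus strand) took 61.7% and 66.9% of the deciding transcripts, or 53.2% and 64.1% by posterior means. The deposited lengths of Pknox2-201 and of most Pknox1 transcripts differ from those in GENCODE M21, so their ends are not the same in both annotations.

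Of the 9 other TALE genes, 8 were detected, as were 58.5% of protein-coding genes. Tgif1 and Tgif2, corepressors of Smad signalling, were the highest, at 73.14 and 69.75 TPM and at 73.84 and 68.52 TPM, close to Meis1. Irx3, of the Iroquois genes, was at 15.76 and 16.05 TPM. Irx6 was below 1 TPM, at 0.55 and 0.63. None of the 9 passed 1.5-fold between the libraries. Among all genes with the minimum count stated above 11.6% did, and among detected genes 4.01%, so this does not set the 9 apart.

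Of the 14 Hox and Engrailed genes listed as partners, 4 were detected, against 58.5% of protein-coding genes, and 9 were below 1 TPM in both libraries. Hoxa2, the selector gene of the second pharyngeal arch, was at 15.08 and 18.69 TPM. Hoxb2 was at 6.33 and 4.72 TPM and Hoxd3 at 2.03 and 2.21 TPM. Hoxc4, named after its value was seen, was at 1.23 and 1.27 TPM. Apart from Hoxa2, which lay near Pknox1, the partners lay below each of the 8 cofactors in deposited TPM in both libraries. Of the 10 partners with 20 counts or more, both libraries summed, 2 passed 1.5-fold, as did 11.6% of all such genes. Both were higher in library 2 and were named after their values were seen. Hoxb1 had 8 and 30 counts, a ratio of 3.74 (1.68 to 9.45). Hoxd1 had 13 and 22 counts, a ratio of 1.69 with an interval of 0.814 to 3.65 that holds 1.

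Of the proteins that act on TALE factors, Crbn, the substrate receptor of a ubiquitin ligase that binds MEIS2, was at 42.86 and 44.72 TPM. Pbxip1, which binds Pbx proteins, was at 8.1 and 6.72 TPM. All 8 genes listed from general knowledge as dependents of Pbx or Meis in the head were detected, as were 58.5% of protein-coding genes. Snai1, a repressor of epithelial genes, was the highest, at 57.59 and 50.3 TPM, and Trp63, a regulator of surface epithelium, was at 17.15 and 15.57 TPM. Of these 8, 2 passed 1.5-fold, as did 11.6% of all genes with 20 counts or more and 4.01% of detected genes. Both were higher in library 1 and were named after their values were seen. Pax6, the eye regulator, was at 19.98 and 10.47 TPM, and Wnt9b, a Wnt ligand of facial ectoderm, at 2.98 and 1.58 TPM. The forebrain, eye and lens list moved the same way, and its part in these values was not tested.

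**Figure D5:**
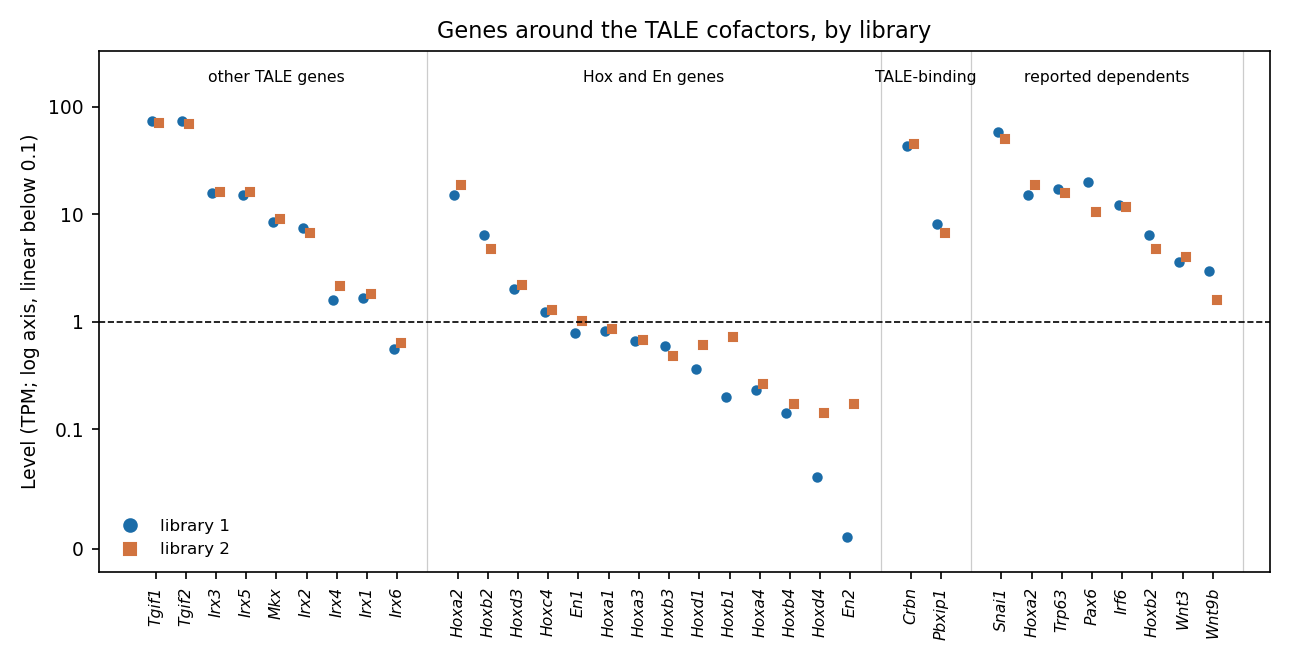
Levels in TPM of the other TALE genes, the Hox and Engrailed partners, 2 proteins that act on TALE factors and the reported dependents in library 1 (circles) and library 2 (squares), on an axis that is linear below 0.1 TPM and logarithmic above. The dashed line marks 1 TPM, and 4 of 14 partners lie above it in both libraries.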

How the data were processed

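Each library was quantified on mm10 with the gene models of GENCODE M4 from its own transcriptome alignment, per the notes deposited with the files. The aligner, the quantifier's version and strandedness are not given in the sources used here. Expected counts, estimated reads with shared reads divided among features, TPM and FPKM were computed by the authors per library, per the file headers, TPM over all entries including spike-ins (15.4% and 15.8% of it). The deposited isoform percentage gives each transcript's percent of its gene's TPM.

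GENCODE M21 gave symbols, types and positions by identifier (98.0% of genes named). Homeoboxes were found in its transcripts by the tryptophan codon at 51 of 63 codons, since no protein table was at hand for the planned protein comparison. Within them the region of the loop was located by proline, tyrosine and proline codons. Counts were scaled by TMM (edgeR 4.0.16, R 4.3.3, with DESeq2 1.42.0 as an alternative) over the whole table. The ratios were also run on simulated counts whose spread beyond counting error was far smaller than the 9.79% between these libraries. That run therefore does not bear on the spread between the real pools. A splice choice is the share of isoform percentage on transcripts holding the segment's introns among those that hold them or skip it. Tables were joined in Python 3.11.15 (scipy 1.17.1). The pools are separate per the labels. Without molecular identifiers reads are not independent molecules, so intervals hold counting error alone.

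The members and lists were chosen with earlier results of these data known. Named were all members, per list the 3 highest detected genes and, where 5 or fewer, those below 1 TPM, transcripts of at least 10% in a library or 15 points apart, and the 3 genes nearest Meis1. Meis1-209 and Pbx4-201 were named for their coding sequence.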

Additional observations from a re-analysis of the deposited data

How the results depend on the processing

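All 8 members were detected at 0.5 TPM and 5 TPM, with posterior mean TPM, with TPM rescaled over annotated genes, with a fixed transcript length (added after the data were seen) and in each library alone. None passed 1.5-fold with DESeq2 size factors, total counts, posterior mean counts or no minimum count, or 2-fold with TMM. The same transcript led in 7 genes with posterior means and with coding transcripts alone. The Meis2 to Meis1 ratio of 0.679 became 0.738 with posterior mean TPM and 0.903 with fixed lengths, which also moved Pbx3 to Pbx4 from 3.56 to 8.08 and summed Meis to summed Pbx from 2.29 to 2.51. Each of these ratios counts all transcripts, and Meis1 lay below Meis2 when transcripts of the coding type alone were counted. No paired analysis was possible because there is 1 group. Without 1 library, each paralog ratio is the other library's value, 0.648 to 0.710 for Meis2 to Meis1 and 1.28 to 1.94 for Meis2 to Meis3. Ratios between the libraries and the match of leading transcripts need both. Depth limits Pbx4, and 2 pools give no more than a rough SD.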
